A study of Mus musculus with 4 samples.

Results

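The genes of the mouse major histocompatibility complex (MHC) and of antigen processing were compared between male and female liver of untreated CD-1 mice, an outbred stock, at 8 weeks of age. Members were chosen by name: every gene entry whose symbol starts with H2-, together with B2m, Tap1, Tap2, Tapbp, Cd74, Nlrc5, Psmb9 and Psmb10. This gave 41 of 21827 gene entries, 39 of them MHC chains or genes of their pathways. Psmb8 and Ciita, which belong to the same pathways, were not analysed here. The RNA came from 12 male and 12 female livers, 6 to a pool, with 2 pools a sex, and poly-A-enriched, strand-specific libraries of the 4 pools were sequenced. The values used here are 1 level per gene and sex, as log2 RPKM (reads scaled to transcript length and to library depth), and the authors' normalized ratio and adjusted p-value, so the spread between pools could not be computed. The comparison asks how expression of these genes differs with sex in liver.

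MHC class I molecules consist of a heavy chain and beta-2-microglobulin, are carried by nearly all nucleated cells, and show peptides from the cell's own proteins to CD8 T cells. The peptides are cut by the proteasome, pumped into the endoplasmic reticulum by the TAP transporter and loaded with the help of tapasin. MHC class II molecules are alpha and beta chain pairs that show peptides of ingested proteins to CD4 T cells. They are made mainly by B cells, dendritic cells and macrophages, which include the Kupffer cells of the liver, and their loading needs the invariant chain and the peptide editor DM.

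Promoter sequences of members of each class are shown first, because promoters of both classes are known to share a module of short elements. They are the 200 bases before the most downstream annotated start of the gene in RefSeq (GRCm38.p6), 5′ to 3′ on the strand of the gene. Capitals mark matches on either strand to the following motifs. GATTGG is an inverted CCAAT element, as in the core of the Y box. TGACG is the core of a cyclic AMP response element, part of the X2 box. GGGATTCCC is the core of the kappa B element of the class I enhancer A. GAAANNGAA and GAANNGAAA are cores of an interferon-stimulated response element. In H2-K1 and H2-D1 the GATTGG match reads CCAATC, and an unmarked attggg lies between TGACG and that match. Which of them is the Y box was not tested. Adjacent capitals in H2-Aa are TGACG matches on both strands that overlap. In H2-Q10 the capitals mark the stretches that align with the matches in H2-D1. The windows lie at chr2:122147487-122147686 (plus strand) for B2m, chr17:34000334-34000533 (minus) for H2-K1, chr17:35262894-35263093 (plus) for H2-D1, chr17:35469889-35470088 (plus) for H2-Q10, chr17:34287824-34288023 (minus) for H2-Aa, chr17:34305667-34305866 (plus) for H2-Eb1 and chr17:34152991-34153190 (plus) for H2-DMb1.
B2m: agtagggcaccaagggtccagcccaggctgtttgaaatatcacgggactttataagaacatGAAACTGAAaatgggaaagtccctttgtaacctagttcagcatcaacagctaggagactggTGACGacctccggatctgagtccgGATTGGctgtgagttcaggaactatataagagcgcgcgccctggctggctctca
H2-K1: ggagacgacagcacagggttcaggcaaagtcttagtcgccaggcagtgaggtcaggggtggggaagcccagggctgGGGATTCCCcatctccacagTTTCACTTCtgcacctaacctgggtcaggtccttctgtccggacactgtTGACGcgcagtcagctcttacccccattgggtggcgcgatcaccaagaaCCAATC
H2-D1: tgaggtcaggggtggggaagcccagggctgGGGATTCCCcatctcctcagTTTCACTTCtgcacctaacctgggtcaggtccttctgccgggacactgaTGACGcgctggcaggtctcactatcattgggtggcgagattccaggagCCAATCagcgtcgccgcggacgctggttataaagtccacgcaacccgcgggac
H2-Q10: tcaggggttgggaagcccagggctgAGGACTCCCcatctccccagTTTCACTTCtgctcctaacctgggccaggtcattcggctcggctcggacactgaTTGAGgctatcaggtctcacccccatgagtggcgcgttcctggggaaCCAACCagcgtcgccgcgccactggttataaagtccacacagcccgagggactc
H2-Aa: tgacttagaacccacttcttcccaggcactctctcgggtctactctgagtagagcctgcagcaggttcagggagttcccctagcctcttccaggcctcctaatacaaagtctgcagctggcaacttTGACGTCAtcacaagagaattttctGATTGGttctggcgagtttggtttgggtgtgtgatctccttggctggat
H2-Eb1: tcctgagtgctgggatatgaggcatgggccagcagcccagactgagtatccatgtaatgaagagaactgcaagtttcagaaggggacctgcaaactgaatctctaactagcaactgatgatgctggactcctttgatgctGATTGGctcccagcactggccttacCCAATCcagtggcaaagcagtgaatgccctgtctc
H2-DMb1: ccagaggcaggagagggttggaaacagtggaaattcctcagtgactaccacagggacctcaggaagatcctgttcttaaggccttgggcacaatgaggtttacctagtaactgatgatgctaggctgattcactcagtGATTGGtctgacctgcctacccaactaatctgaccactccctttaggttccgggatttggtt

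Of the 41 members, 33 had a promoter window in the RefSeq table. GATTGG was found in 15 of 20 class I heavy chain windows and in 7 of 7 class II windows (6 of 6 without H2-DMa), against 13.2% of windows of the same length over 27025 genes. Matches on either strand and at any position count, so a match need not be the Y box. The H2-DMa match lies at the far edge of its window, at position -199 from the start, and that window may belong to another start than the transcript measured. In H2-K1, H2-Q7 and Psmb9 the match lies close to the start, at -6, -16 and -9, against -53 in H2-D1. The windows of these genes may therefore not cover the same stretch of promoter as that of H2-D1. TGACG was found in 10 of 20 class I and 1 of 7 class II windows, against 15.3% of all windows. GGGATTCCC was found in 4 class I windows, those of H2-K1, H2-D1, H2-Q6 and H2-Q7, and in no class II window, against 0.211% of all windows. GAAANNGAA was found in the windows of B2m and H2-T22, against 5.61% of all windows. GAANNGAAA was found in 8 of 20 class I heavy chain windows, 7 of the 8 of liver-expressed heavy chain genes, and in 0 of 7 class II windows, against 5.13% of all windows. Class I genes are close copies of each other, so their windows are not independent. The window of H2-Q10 was 86.4% identical to that of H2-D1 over 191 aligned bases and held GAANNGAAA and none of the other 4 motifs. Against the H2-D1 match, counted from 1 at the left end of each capital stretch, H2-Q10 carried G1A and T5C in GGGATTCCC, G2T, A3G and C4A in TGACG, and T5C in CCAATC. These matches are descriptions of sequence and show no binding.

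B2m and the heavy chain genes H2-Q10, H2-K1 and H2-D1 were among the most abundant transcripts of liver in both sexes. Class II genes were far lower than these, whereas other heavy chain genes lay near or below the class II chains. B2m, the light chain of class I, had a log2 RPKM of 10.42 in male and 10.40 in female liver, ranks 39 and 37 of 21808 entries with a level. H2-Q10, which encodes a class I molecule that hepatocytes secrete, had a log2 RPKM of 9.30 in male and 9.33 in female liver. The classical heavy chain genes followed, H2-K1 at 7.84 in male and 7.98 in female liver and H2-D1 at 7.35 in male and 7.75 in female liver. Summed over 23 heavy chain entries, class I came to 1067 RPKM in male and 1162 RPKM in female liver, and H2-Q10, H2-K1 and H2-D1 together made up 95.7% of the sum in male and 95.4% in female liver. H2-Q10 alone made up 58.9% in male and 55.3% in female liver. The sum over 8 class II chain and editor entries was 31.4 RPKM in male and 38.3 RPKM in female liver, so that the class I sum was 33.9 times the class II sum in male and 30.4 times in female liver. Cd74, the invariant chain of class II, had a log2 RPKM of 5.36 in male and 4.99 in female liver.

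**Figure D1:**
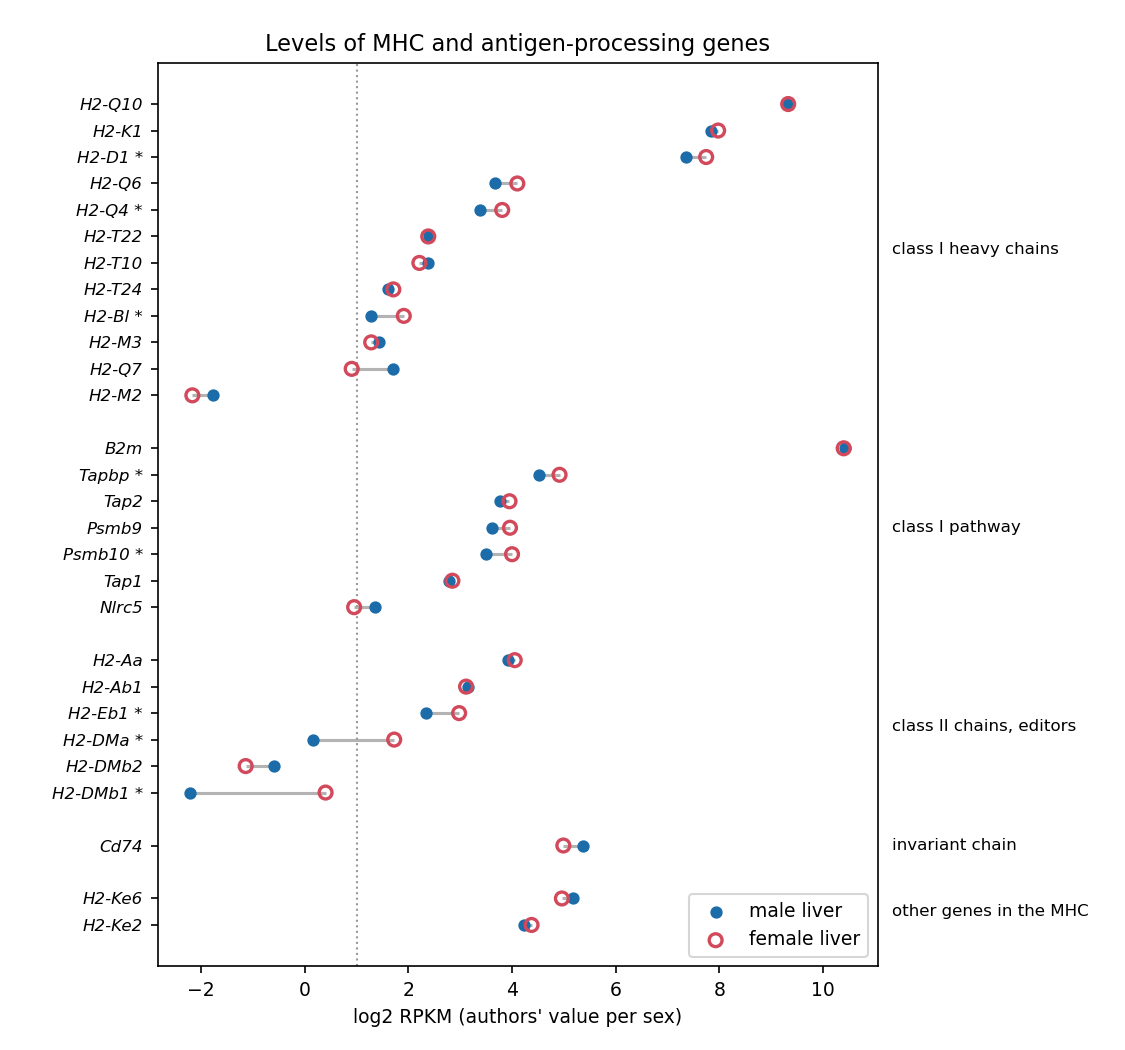
Level (log2 RPKM, horizontal axis) of the 28 members compared between the sexes, with filled points for male liver, open points for female liver, a star after the name at an authors' adjusted p under 0.05 and a dotted line at the authors' limit for liver-expressed genes (log2 RPKM of 1). Class I heavy chains and B2m reach 9.33 and 10.40 in female liver, whereas no class II chain passes 4.05.

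Of the 41 members, 25 carried the authors' flag for liver expression, which stands for a log2 RPKM of 1 or more in male or female liver. A further 10, all non-classical heavy chain genes of the H2-M group, had the lowest level the scale allows for their length in either sex, where a level stands for no reads (the floor). These were H2-M1, H2-M5, H2-M9, H2-M11 and the H2-M10.1 to H2-M10.6 genes, with a log2 RPKM between -4.79 and -3.50 in male and between -5.18 and -3.89 in female liver. Their rows carry an adjusted p of 0.026 in the authors' deposited table with a ratio of 1, and they were not counted as called. The H2-M10 genes are known for expression in sensory neurons of the vomeronasal organ. Another 3 members had reads in male or in female liver alone and were given no ratio. H2-Oa, an inhibitor of DM in B cells, had 2 implied reads in male and 0 in female liver, H2-Eb2 had 3 in male and 0 in female liver, and H2-T3, the thymus leukemia antigen, had 0 in male and 1 in female liver. Differences of this size were not detectable at this depth. The other 28 members had a ratio and are called compared members. Reads were counted in steps of the floor, with the floor worth 1 read, which implies about 11241814 reads in all for male and 14719061 for female liver. Of the hepatocyte markers, Alb stood at a log2 RPKM of 14.8 in male and 15.5 in female liver.

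All compared members that passed the test were higher in female liver. At an authors' adjusted p under 0.05, 8 of the 28 compared members were higher in female liver (28.6%) and 0 in male liver, against 10.2% female-higher and 7.21% male-higher among all 13763 compared genes. In class I, 3 of 12 compared heavy chain genes and 2 of 7 pathway genes were higher in female liver. In class II, 3 of 6 compared chain and editor genes were higher in female liver. The folds of the called genes ran from 1.34 to 1.67 for the heavy chains, from 1.39 to 1.46 for the class I pathway and from 1.67 to 8.79 for class II. The median log2 ratio of male over female liver was -0.07 for the heavy chains, -0.27 for the class I pathway and -0.51 for class II, beside -0.02 over all compared genes. At an adjusted p under 0.01, the limit of the authors' own classes, the 3 class II genes kept the call and no class I gene did, against 6.05% female-higher and 4.16% male-higher among all compared genes. With a fold of at least 1.5 as well as an adjusted p under 0.05, 4 members were higher in female and 0 in male liver, against 8.38% female-higher and 5.1% male-higher among all compared genes. Among the 25 liver-expressed members, 7 were higher in female liver, against 9.2% of liver-expressed genes. The difference between class I and class II was not itself tested, and unadjusted p-values are not given in the table.

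**Figure D2:**
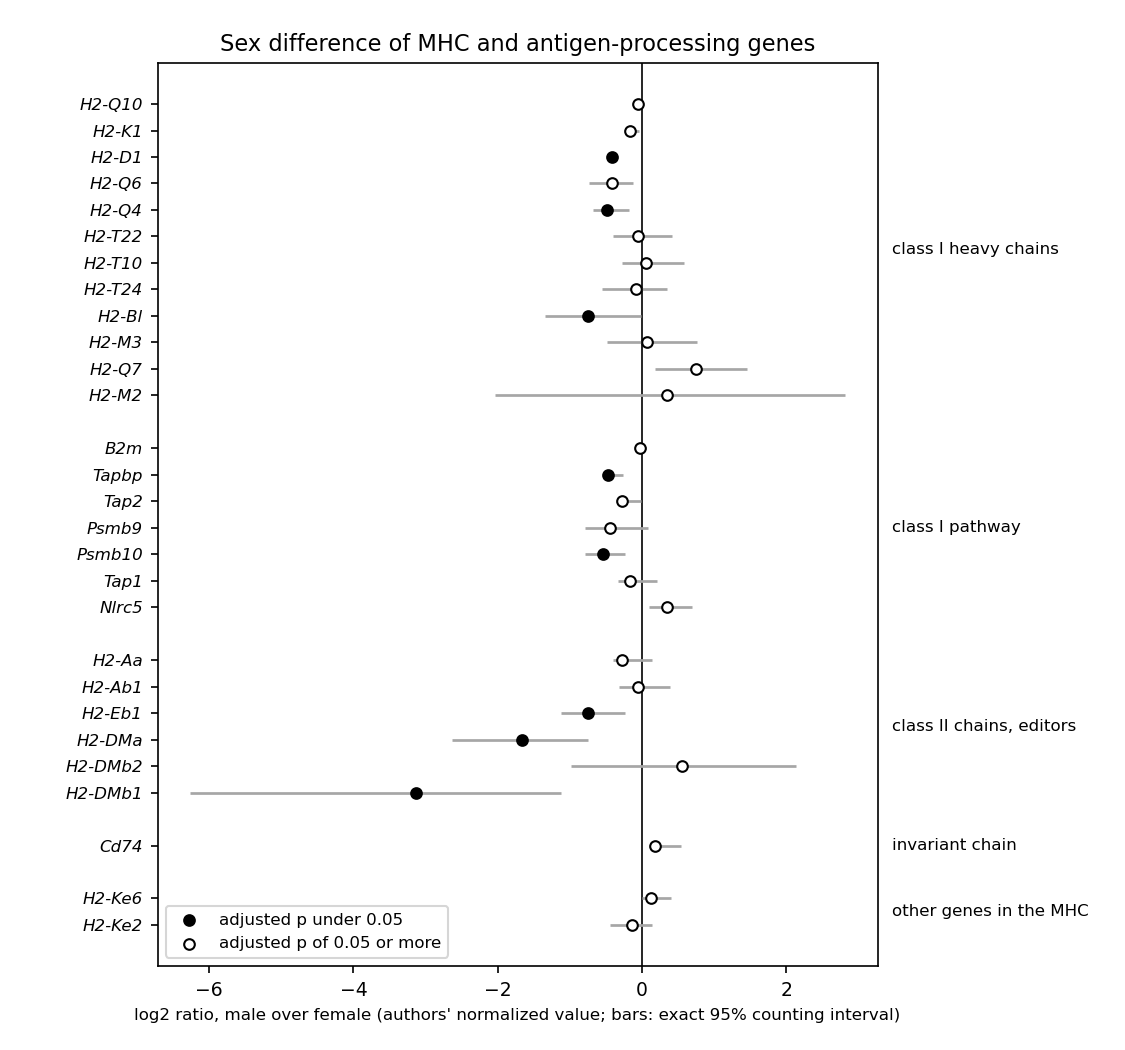
Normalized log2 ratio (authors' value, male over female liver, horizontal axis) for the 28 compared members, with bars for the exact 95% interval from counting implied reads, filled points at an adjusted p under 0.05 and open points otherwise. All 8 filled points lie left of 0 (higher in female liver), with H2-DMb1 and H2-DMa farthest out.

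The classical heavy chains were both nominally higher in female liver, and 1 of the 2 passed the test. H2-D1 (chromosome 17, 35400039 to 35404442, mm9) had a log2 RPKM of 7.35 in male and 7.75 in female liver and, in the authors' deposited table, a 1.34-fold excess in female liver at an adjusted p of 0.0275. With about 3846 implied reads in male and 6636 in female liver, counting alone allows 1.27-fold to 1.37-fold. H2-K1 had a log2 ratio of -0.17 (adjusted p of 0.377, authors' deposited table). Differences between mice or pools are not part of any counting interval given here.

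Among non-classical heavy chains, H2-Q4 and H2-Bl were higher in female liver. H2-Q4 (chromosome 17, 35516562 to 35522235, mm9) had a log2 RPKM of 3.39 in male and 3.81 in female liver, a 1.40-fold difference at an adjusted p of 0.023 in the authors' deposited table. H2-Bl (chromosome 17, 36217134 to 36221168, mm9), which RefSeq lists as a transcribed pseudogene in the reference strain, had a log2 RPKM of 1.27 in male and 1.91 in female liver and was 1.67-fold higher in female liver (adjusted p of 0.0346, authors' deposited table). Its reads, about 30 in male and 62 in female liver, allow 1.01-fold to 2.53-fold by counting. H2-Q6 and H2-Q7, of the group that encodes Qa-2 antigens, had log2 ratios of -0.41 and 0.75, with an adjusted p of 0.111 and 0.0773 in the authors' deposited table. The level of H2-Q6 was 3.67 in male and 4.10 in female liver, and that of H2-Q7 was 1.71 in male and 0.905 in female liver (log2 RPKM). These neighbours are near-identical in sequence and point to opposite sides. The sources used here do not give how reads that fit both were counted. Single values of the H2-Q, H2-T and H2-D genes are therefore uncertain. Whether MHC sequence differences among these outbred mice, or between them and mm9, affect the values of any member was not tested.

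None of the other 6 compared heavy chains passed the test. H2-Q10 had a log2 ratio of -0.05 (adjusted p = 0.773), and its reads allow a ratio of male over female of 0.953 to 1.003 by counting. H2-T22, whose product is a ligand of gamma delta T cells, had a log2 RPKM of 2.39 in male and 2.38 in female liver (log2 ratio -0.06). H2-T10, its close copy, which RefSeq lists as a transcribed pseudogene, had 2.38 in male and 2.21 in female liver (log2 ratio 0.06). H2-T24 had a log2 RPKM of 1.61 in male and 1.71 in female liver (log2 ratio -0.09). H2-M3, which presents formylated peptides, had 1.42 in male and 1.28 in female liver (log2 ratio 0.07). H2-M2 had 4 implied reads in each sex and a log2 ratio of 0.34, and counting alone allows a ratio of male over female of 0.244 to 7.03. The lowest adjusted p of these 6 was 0.757, of H2-T22.

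In the class I pathway, tapasin and an immunoproteasome subunit were higher in female liver. Tapbp, the gene of tapasin, which holds empty class I molecules at the TAP transporter (chromosome 17, 34056423 to 34066235, mm9), had a log2 RPKM of 4.52 in male and 4.92 in female liver, a 1.39-fold difference at an adjusted p of 0.0174 in the authors' deposited table. Psmb10, a catalytic subunit of the immunoproteasome (chromosome 8, 108459628 to 108462292, mm9), had a log2 RPKM of 3.50 in male and 4.0 in female liver and was 1.46-fold higher in female liver (adjusted p of 0.0198, authors' deposited table). Counting alone allows 1.2-fold to 1.44-fold for Tapbp and 1.18-fold to 1.73-fold for Psmb10. Psmb9, another immunoproteasome subunit, had a log2 RPKM of 3.62 in male and 3.96 in female liver and did not pass the test (log2 ratio -0.44, adjusted p = 0.0538). Of the TAP transporter subunits, Tap1 had a log2 RPKM of 2.79 in male and 2.85 in female liver (log2 ratio -0.17, adjusted p = 0.417). Tap2 had 3.78 in male and 3.95 in female liver (log2 ratio -0.27, adjusted p = 0.192). Tap1 lies head to head with Psmb9 on chromosome 17, with 182 bases between their annotated ends in mm9. B2m had a log2 ratio of -0.03 (adjusted p = 0.88), and its reads allow a ratio of 0.992 to 1.038. Nlrc5, the transactivator of class I genes, lay on the male side, with a log2 RPKM of 1.35 in male and 0.95 in female liver, a log2 ratio of 0.34 and an adjusted p of 0.174.

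In class II, the peptide editor DM differed most between the sexes. DM is a heterodimer that removes the invariant chain fragment from class II molecules, and both of its chains had called genes. H2-DMa, the alpha chain gene (chromosome 17, 34272573 to 34276046, mm9), had a log2 RPKM of 0.17 in male and 1.73 in female liver and, in the authors' deposited table, a 3.15-fold excess in female liver at an adjusted p of 0.000598. The 13 implied reads in male and 53 in female liver allow 1.67-fold to 6.23-fold by counting. H2-DMb1, a beta chain gene (chromosome 17, 34290174 to 34297168, mm9), had a log2 RPKM of -2.21 in male and 0.40 in female liver and was 8.79-fold higher in female liver (adjusted p of 0.000641, authors' deposited table). It rests on 2 implied reads in male and 23 in female liver, for which counting gives an interval of 2.17-fold to 76.9-fold. These read numbers were picked as the ones nearest to the authors' ratio, so the interval is no separate check of the fold. H2-DMb2, the neighbouring beta chain gene, had 9 implied reads in male and 8 in female liver, a log2 ratio of 0.56 and an adjusted p of 0.496. The beta chain genes are close copies, and reads that fit both could be split between them.

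Of the class II chains themselves, 1 of 3 compared genes was called. H2-Eb1, a beta chain gene of the E molecule (chromosome 17, 34442843 to 34453144, mm9), had a log2 RPKM of 2.33 in male and 2.98 in female liver and, in the authors' deposited table, a 1.67-fold excess in female liver at an adjusted p of 0.0049. Counting alone allows 1.17-fold to 2.17-fold. The A molecule genes did not pass the test. H2-Aa had a log2 RPKM of 3.92 in male and 4.05 in female liver (log2 ratio -0.28, adjusted p = 0.195), and H2-Ab1 had 3.15 in male and 3.11 in female liver (log2 ratio -0.06, adjusted p = 0.72). Cd74 lay on the male side, with a normalized log2 ratio of 0.18 and a plain difference of log2 RPKM values of 0.37 (adjusted p = 0.456), so the size of its ratio is uncertain. For Cd74, Nlrc5, H2-Q7 and 4 further members the counting interval left out a ratio of 1 although the authors' adjusted p was 0.05 or more, among 20 compared members that were not called.

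Among the H2- symbols are 2 genes that encode no MHC chain. H2-Ke2, a prefoldin subunit gene also named Pfdn6, had a log2 RPKM of 4.23 in male and 4.38 in female liver (log2 ratio -0.14, adjusted p = 0.653). H2-Ke6, a steroid dehydrogenase gene also named Hsd17b8, had 5.17 in male and 4.96 in female liver (log2 ratio 0.13, adjusted p = 0.574). On chromosome 17 the members span 3.56 Mb (34056423 to 37620474, mm9), and 134 other gene entries lie between them, 87 of which were compared. Of these 87 genes, 7 were higher in female liver (8.05%) and 5 in male liver, beside 10.2% and 7.21% of all compared genes, at a median of -0.07 for the log2 ratio. C4a, a complement gene, was among the male-higher genes (log2 ratio 2.39), and Ddah2 among the female-higher genes (log2 ratio -2.05).

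**Figure D3:**
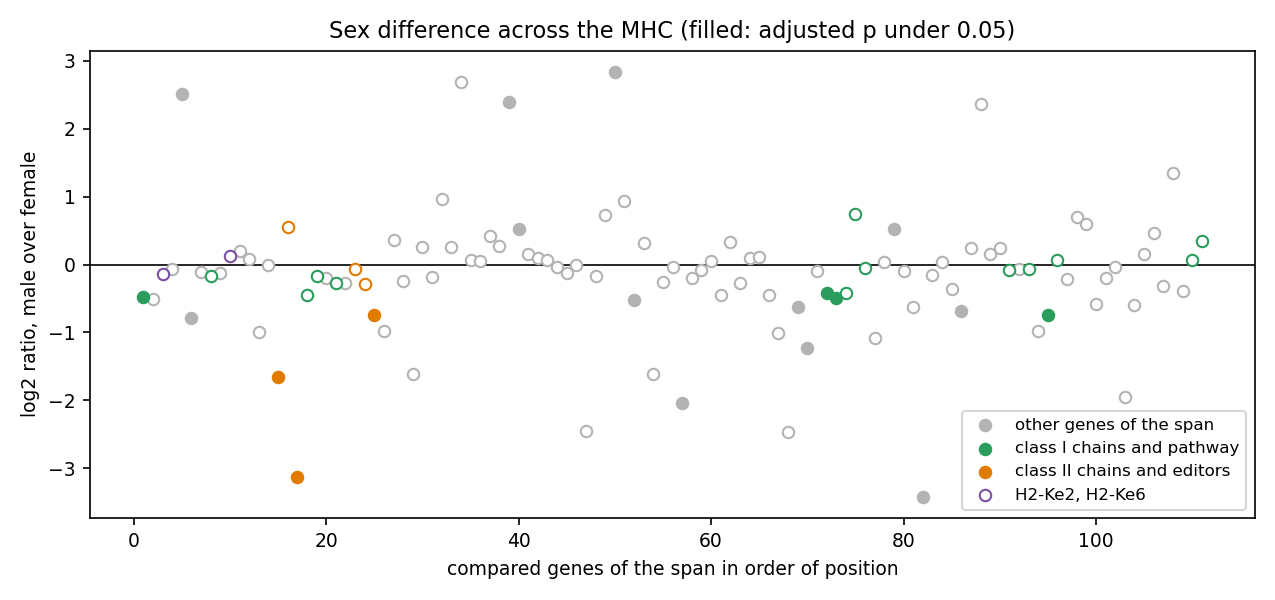
Log2 ratio of male over female liver (vertical axis) for compared genes of the MHC span on chromosome 17, in order of position, with members in colour, other genes in grey and filled points at an adjusted p under 0.05. The filled member points, class I and class II, lie below 0, whereas the 12 filled grey points lie on both sides.

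Genes outside the member list that supply peptides or load class I molecules, and class I-like genes, were counted in the same way. Among all compared genes, 10.2% were female-higher and 7.21% male-higher. Of 9 peptide loading and trimming genes, 1 was higher in female liver: Tapbpl, a tapasin-related peptide editor, had a log2 RPKM of 3.10 in male and 3.64 in female liver (1.55-fold, adjusted p of 0.00423, authors' deposited table). The chaperones Calr and Canx had log2 ratios of -0.08 and -0.01, and the trimming peptidase Erap1 had -0.07. None of 6 proteasome activator and assembly genes passed the test (median log2 ratio -0.02, with Pomp at -0.08 and Psme1 at 0.24), and neither did the constitutive catalytic subunits Psmb6 (0.01) and Psmb7 (0.26). Of 7 compared class I-like genes outside the MHC, Cd1d1, which presents lipids to natural killer T cells, was higher in female liver, at 6.65 in male and 7.10 in female liver (1.40-fold, adjusted p of 0.0102, authors' deposited table). The Fc receptor chain gene Fcgrt had a log2 ratio of 0.00.

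In class II processing, 1 of 10 compared genes was called in each direction, beside 10.2% female-higher and 7.21% male-higher of all compared genes. Cst3, the cathepsin inhibitor cystatin C, was higher in female liver (log2 RPKM 6.08 in male and 6.71 in female liver, 1.49-fold, adjusted p = 0.00534). Cd4, the T cell coreceptor of class II, was higher in male liver (0.24 in male and -1.42 in female liver, 3.20-fold, adjusted p = 0.000481). The cathepsin genes Ctss, Ctsl and Ctsb had log2 ratios of -0.34, -0.35 and -0.31 and did not pass the test. Of 8 compared receptor and co-stimulation genes, Cd86 was higher in female liver (0.72 in male and 1.43 in female liver, 1.67-fold, adjusted p = 0.0307). All folds and adjusted p-values of these genes are those of the authors' deposited table.

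Regulators of MHC genes included 3 called interferon regulatory factors. Of the transcription factor genes compared, 2 were higher in female and 1 in male liver, beside 10.2% and 7.21% of all compared genes. Of 12 compared transcription factor genes, Irf8, a factor of myeloid cells and B cells, was 2.22-fold higher in female liver (log2 RPKM 1.03 in male and 2.18 in female liver, adjusted p = 0.000108). Irf1, which activates class I genes, was 1.37-fold higher in female liver (3.96 in male and 4.31 in female liver, adjusted p = 0.0287). Irf2, which binds the same elements as Irf1, was 1.68-fold higher in male liver (5.04 in male and 4.25 in female liver, adjusted p = 0.000212). The genes of the X box factor complex, Rfx5, Rfxap and Rfxank, had log2 ratios of -0.19, -0.26 and -0.44 and did not pass the test. Of 9 compared genes of interferon gamma signalling, Irf1 and Irf9 were higher in female liver, Irf9 by 1.51-fold (3.68 in male and 4.26 in female liver, adjusted p = 0.00525). Ifng was at the floor in male and in female liver. All these values come from the authors' deposited table.

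Markers of cells that bear class II were counted in the same way, beside 10.2% female-higher and 7.21% male-higher of all compared genes. In bulk liver, fewer cells of a type and less RNA per cell cannot be told apart. Of 11 Kupffer cell and macrophage markers, 7 were higher in female liver and 0 in male liver, at a median of -0.45 for the log2 ratio and a summed level of 219 RPKM in male and 286 RPKM in female liver. They included Marco (3.21-fold), C1qc (1.63-fold), C1qb (1.48-fold) and Timd4 (1.43-fold), beside C1qa, Vsig4 and Clec4f, in the authors' deposited table. Of 7 compared dendritic cell markers, Itgax (12.98-fold) and Cd209a (10.19-fold) were higher in female liver, both at a log2 RPKM below 0 in each sex. The others did not pass the test. Flt3, Clec9a and Siglech had log2 ratios of -1.07, -0.69 and -0.54, whereas Zbtb46 and Xcr1 had 0.24 and 0.93. The median of the list was -0.69, and of the 7 markers Zbtb46 alone had a log2 RPKM above 0. The summed level of the dendritic cell markers was 7.61 RPKM in male and 7.87 RPKM in female liver, and without Zbtb46, the highest, 1.54 RPKM in male and 2.97 RPKM in female liver. Of 8 B cell markers, Cd22 (7.11-fold) and Blk (5.11-fold) were higher in female liver. In contrast, Cd79a, Cd79b and Ms4a1 had log2 ratios between 0.40 and 1.24 and did not pass the test. All these B cell genes had a log2 RPKM below 0 in each sex. The summed level of the B cell markers was 8.29 RPKM in male and 6.56 RPKM in female liver, and without Fcrla, the highest (log2 ratio 0.42), 2.62 RPKM in male and 2.51 RPKM in female liver. Of 5 general leukocyte markers, Cd52 (2.71-fold), Laptm5 (1.78-fold) and Ptprc (1.45-fold) were higher in female liver, with a summed level of 13.7 RPKM in male and 19.6 RPKM in female liver. None of the markers in these 4 lists was without reads in both male and female liver, and Ccr7 had reads in female liver alone. The part of these cells in the MHC differences was not tested.

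**Figure D4:**
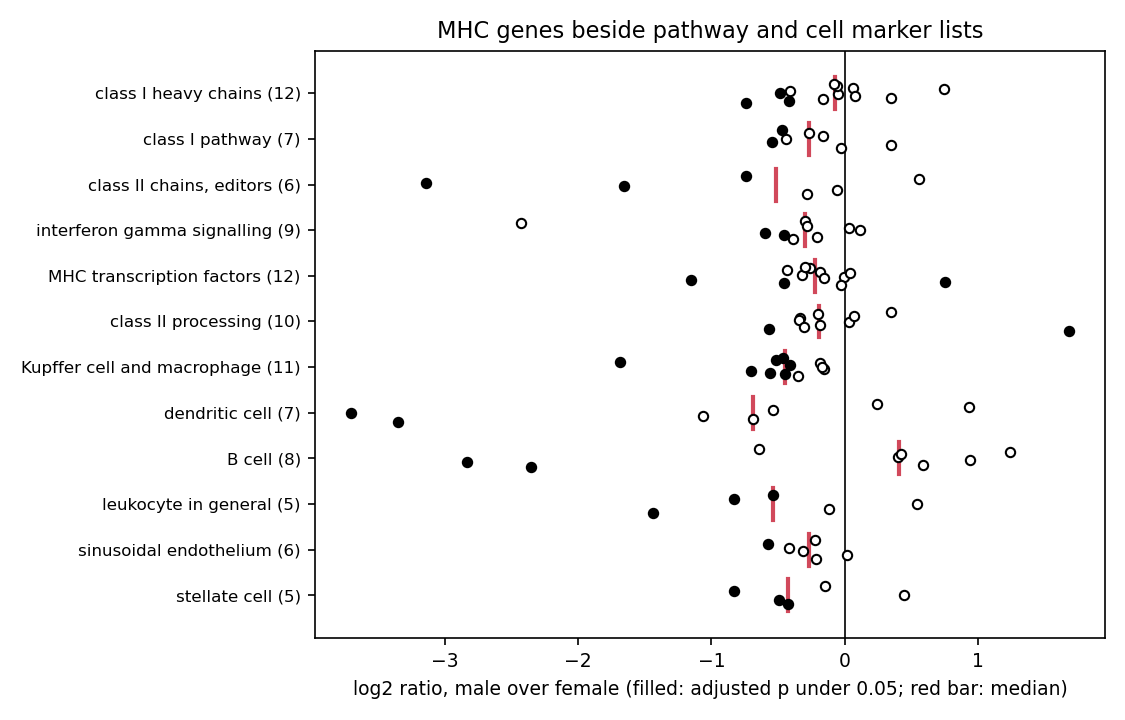
Log2 ratio of male over female liver (horizontal axis) for the compared genes of the member classes and of pathway and cell marker lists, with the number of genes in brackets, filled points at an adjusted p under 0.05 and red bars at the medians. Class II (median -0.51) and the Kupffer cell (-0.45), dendritic cell (-0.69) and general leukocyte markers (-0.54) lie to the left of the class I heavy chains (-0.07). B cell markers (0.41) lie to the right.

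Other cell markers were called as follows, beside 10.2% female-higher and 7.21% male-higher of all compared genes. Of 5 stellate cell markers, Lrat (1.78-fold), Dcn (1.41-fold) and Colec10 (1.34-fold) were higher in female liver, and of 6 sinusoidal endothelial markers Pecam1 (1.49-fold) was. Of 6 compared T cell markers, Cd4 alone was called and was higher in male liver, whereas the other 5 had log2 ratios between -0.98 and -0.16 and the median was -0.73. Of 5 compared natural killer cell markers, Klrk1 (2.06-fold) and Nkg7 (15.28-fold) were higher in female liver, and of 4 neutrophil markers Csf3r (3.25-fold) was. Their levels were low, with Nkg7 at a log2 RPKM of -3.19 in male and 0.74 in female liver. Klrk1 and Csf3r lay below 0 in each sex. Of 5 cholangiocyte markers, Sox9 (1.92-fold) was higher in female and Spp1 (1.73-fold) in male liver. Of 5 hepatocyte markers, Alb (1.62-fold) was higher in female liver and Apoa1 (1.49-fold) in male liver. These folds are those of the authors' deposited table.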

How the data were processed

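Poly-A RNA of 2 male and 2 female pools of CD-1 mouse liver was sequenced, and the submitters' processing notes name Bowtie, edgeR and mm9, without versions or roles. Per the file headers, the authors deposited log2 RPKM per sex, a normalized log2 ratio, its linear ratio, a signed fold change (a score), an adjusted p-value and a liver-expression flag (other). The table holds no value per pool, so no gene was tested anew, and the planned fit on counts per library was not run. Calls use the deposited adjusted p with a limit of 0.05. Genes with a ratio of 1 whose levels differ by 0.389 (6590) lie at the floor, 1460 rise above it in 1 sex, 14 more have no level, and 13763 were compared. Implied reads are the multiple of the floor less 1, with transcript lengths from GENCODE vM21. The length was that of the RefSeq accession, otherwise one giving whole reads, or that of the shortest coding transcript, which widens the interval. For H2-DMb1, with few reads and no matching length, the whole reads nearest to the authors' ratio were taken. Intervals are exact (Clopper-Pearson, 95%, SciPy 1.17.1) and cover counting error only. The intervals are scaled by implied depth, so the normalized ratio need not lie at their centre. A check on simulated data used true reads and depths for the intervals and known transcript lengths for recovering reads. It did not test reads implied without a known length. Of 4668 floor genes with a length, 74.2% matched the length implied by the floor within 2%. Promoters were aligned with Biopython 1.88. Members and lists were chosen with earlier results of these data known. Values are given for every member that was liver-expressed or called, and for up to 4 called genes of each other list by size of ratio. Values of H2-DMb2, H2-M2, the members above the floor in 1 sex, C4a, Ddah2 and list genes that were not called were added after they were seen. The 2 longer motifs were shortened to 9-letter cores, and GAANNGAAA was added, after a first search. In the lists, 136 genes were matched by symbol, 2 by accession and 11 not. Sums without the highest gene were chosen after seeing the data. Values of some list genes are not reported here.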

Additional observations from a re-analysis of the deposited data

How the results depend on the processing

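At an adjusted p under 0.01, 3 members were higher in female liver instead of 8, with 0 class I heavy chains instead of 3, 0 class I pathway genes instead of 2, and the 3 class II genes. Asking for a fold of at least 1.5 left 4 members, of them 1 heavy chain, 0 class I pathway genes and 3 class II genes. Taken as log2 RPKM in male less log2 RPKM in female liver, the class II median was -0.39 instead of -0.51. Over liver-expressed genes, or (chosen after seeing the data) members with at least 10 implied reads in each sex, 7 members were called, without H2-DMb1. Over liver-expressed genes the median of the receptor and co-stimulation list was -0.74 from 1 gene, instead of -0.19. Other medians moved by at most 0.1. With a pseudocount of 1 RPKM the log2 ratio of H2-DMb1 was -0.93 instead of -3.14 and that of H2-DMa -1.02 instead of -1.66. H2-Ab1, H2-T22 and B2m, none called, changed sign in that difference and with the pseudocount. No call changed direction. No paired analysis was possible because the table gives no value per pool, no pool could be left out, and the planned fits on counts were not run. At under 10 reads in a sex, depth limits H2-DMb1, H2-DMb2 and H2-M2 most.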
